A study of Mus musculus with 28 samples.

Results

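The comparison described here set 4 WT tumors against 4 libraries of WT cells in culture, all of the murine line 3LL, and was read over the rows of the expression table that carry a gene symbol. The 8 libraries are part of a series of 28, and 18509 of the 43143 rows have a symbol. The libraries were taken by their labels: the WT cells numbered 1 to 4, and the WT tumors of Experiment A numbered 1 to 4. The question addressed is which genes differ between unedited cancer cells in a dish and the tissue that the same cells form in a mouse, where host blood cells, vessels and connective tissue are measured together with the cancer cells.

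3LL is a Lewis lung carcinoma line from male mice that forms tumors in mice with an intact immune system. WT means that neither Keap1 nor Nfe2l2 was edited. The cultured WT cells were grown in RPMI medium with fetal bovine serum. For the tumors, WT cells were injected under the skin of the left flank of albino C57BL/6 male mice aged 6 weeks, while the right flank of the same mice received KEAP1-KO cells, in which Keap1 was disrupted by CRISPR-Cas9. Tumors were removed after 10 days and frozen rapidly, and no cell sorting is described for these libraries. The extract protocol in the labels speaks of mouse liver, which the sample titles do not, and the liver gene Alb was between 2.0 and 2.35 in the WT cells and between 2.0 and 2.74 in the WT tumors, at or near 0 reads. A further 2 pairs of groups were used for comparison: KEAP1-KO tumors of Experiment A with KEAP1-KO cells, and DKO tumors of Experiment B with DKO cells, where DKO denotes loss of both Keap1 and Nfe2l2 and the DKO tumors grew on the right flank opposite KEAP1-KO tumors. The edited lines were each raised from a single colony. Each of these groups holds 4 libraries. Nothing in the sources says that the 4 cell libraries came from separate cultures, so the p-values measure the spread between these libraries, which may be technical. Growth in a mouse, freezing of tissue and any difference in handling or sequencing day changed together between tumors and cells and cannot be told apart.

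A transplanted carcinoma recruits a stroma. Monocytes enter from the blood and become tumor-associated macrophages, neutrophils follow chemokines that bind CXCR2, endothelial cells and pericytes build vessels, and fibroblasts lay down collagen. Interferons released within the tissue switch on antiviral genes and the genes for antigen presentation in both host and cancer cells. Cultured cells, by contrast, live with ample oxygen, glucose and serum. KEAP1 is the protein that marks the transcription factor NRF2, the product of Nfe2l2, for degradation, and NRF2 drives genes for detoxification and antioxidant defence.

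Values are log2(normalized count + 4), so a library with 0 reads of a row has the value 2.0, and differences of rows with few reads are understated. The WT cells held between 5808968 and 6149588 reads and the WT tumors between 5016021 and 6048382, and 21.9% to 23.5% of the rows were at 0 in a cell library against 14.6% to 15.6% in a tumor. A symbol is usually represented by a single row. Of the rows with a symbol, 45.5% are gene rows, 22.6% retained introns, 11.5% processed transcripts, 9.84% protein coding transcripts and 8.75% transcripts subject to nonsense mediated decay, so the row of a gene can be a minor transcript and not its total. The kind of row is given where it is not a gene row. The normalized counts of all rows with a symbol summed to 5462680 to 6185490 in the cells and to 3936570 to 4222680 in the tumors, and the scaling between libraries therefore matters for genes with small changes. Rn18s, a row of 18S ribosomal RNA left after depletion, was at 13.68 ± 0.35 (SD, n = 4) in cells and 10.56 ± 0.50 (n = 4) in tumors, and its part in the results was not tested.

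The difference between tumors and cells was broad. Of the 18509 rows with a symbol, 13554 had 5 or more normalized counts in 4 or more of the WT libraries and were tested with limma. At an adjusted p under 0.05, 7623 rows (56.2%) were called, of which 3864 (28.5% of those tested) were higher and 3759 (27.7%) lower in tumors. For 7577 rows (55.9%) the 4 tumors and the 4 cell libraries did not overlap, and 4000 of the called rows differed by at least 1 on the log2 scale, 2359 higher and 1641 lower. The first principal component held 70.2% of the variance and placed all 4 cell libraries on 1 side and all 4 tumors on the other. On the second component (5.82%) tumor 1 was at -47.3 and the other tumors between 1.38 and 29.7. The median difference over the tested rows was 0.10. It became -0.13 with quantile normalization, -0.24 with each library centred on its median and 0.40 with rescaling to the total without the 20 highest rows, and the split of higher against lower calls moved with it, to 3131 against 4010, 2533 against 4763 and 5421 against 2718. The shares 28.5% and 27.7% are the background against which each gene list below is read. They include 1067 rows that no cell library carried past the filter. The shares over the other 12487 rows are not given here. Calls of higher or lower counted only over rows that reached the filter in a cell library therefore have no matching background.

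**Figure D1:**
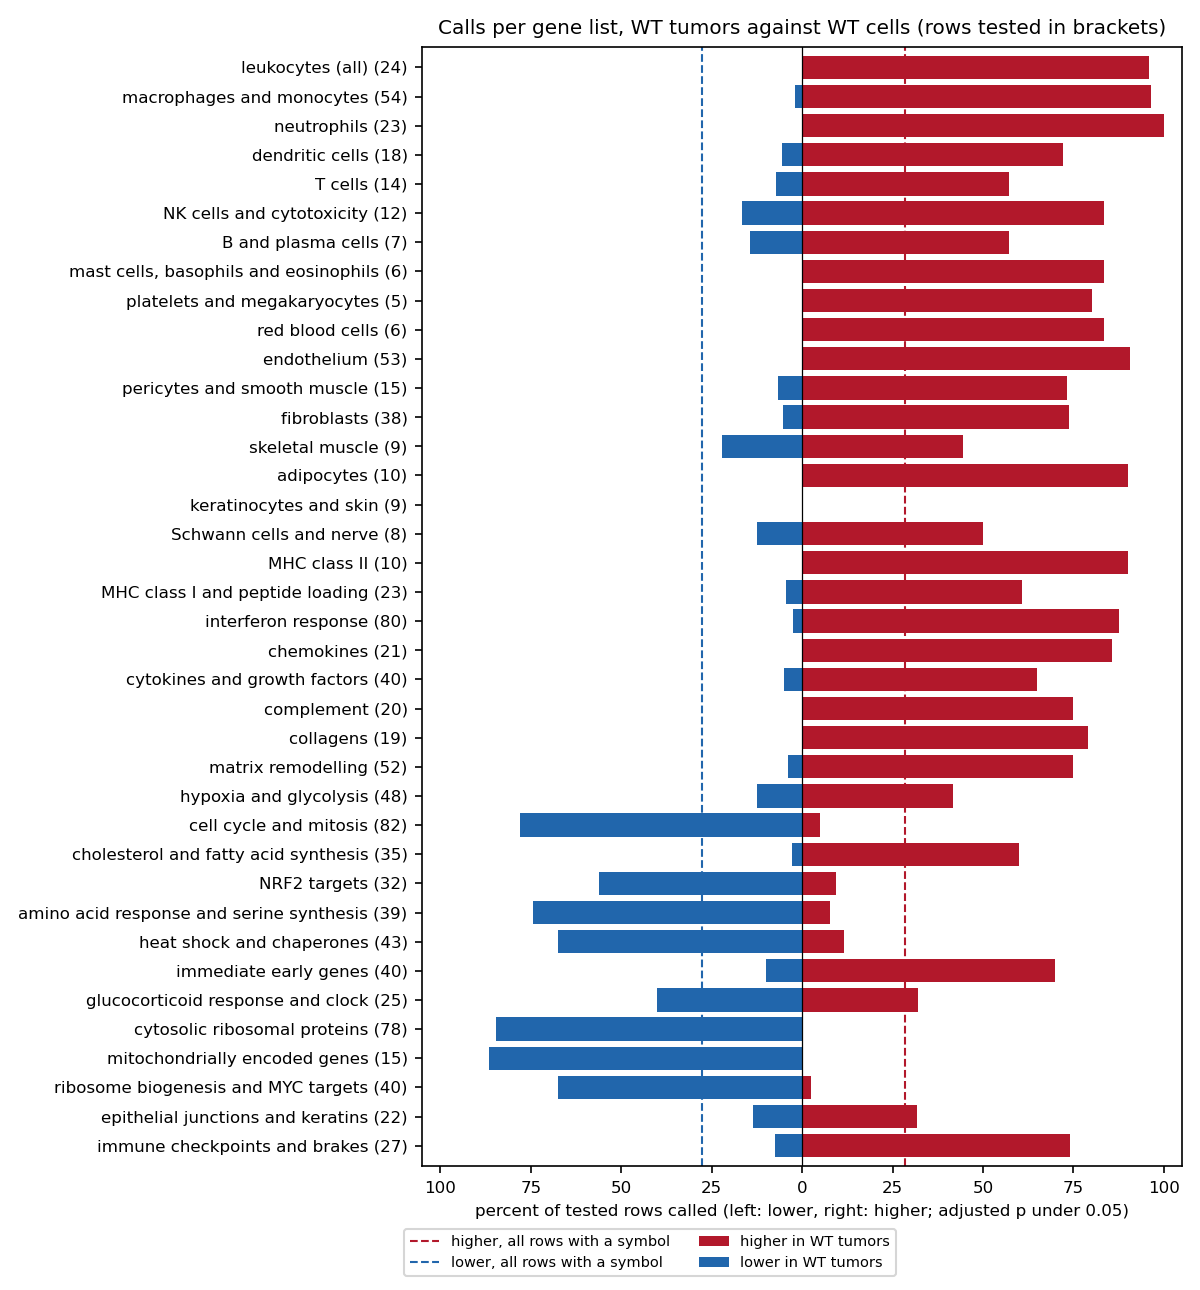
Percent of the tested rows of each of 38 gene lists that were called higher (right, red) or lower (left, blue) in WT tumors than in WT cells, with the number of tested rows in brackets. Dashed lines mark the shares over all rows with a symbol, 28.5% higher and 27.7% lower. Lists of blood cells, vessels, fibroblasts, interferon response and matrix lie to the right, and lists of cell cycle, amino acid response, chaperones and ribosomal proteins to the left.

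The identity of the cancer cells was read first. Keap1 had 9.47, 9.35, 9.56 and 9.42 in the cell libraries and 8.78, 8.98, 8.84 and 8.93 in the tumors. Every tumor lay under every cell library, and the mean fell by 0.57 on the log2 scale (SE 0.07, adjusted p = 0.000138, limma), a call that was lost with quantile normalization. Nfe2l2, listed as a processed transcript, was at 5.32 ± 0.22 (SD, n = 4) in cells and 6.01 ± 0.22 (n = 4) in tumors (adjusted p = 0.00814, limma), and that call was lost with quantile normalization and with median centring. Krt8, a keratin of simple epithelia, had 12.33, 12.11, 12.27 and 12.17 in cells and 11.25, 11.42, 11.62 and 11.58 in tumors, and fell by 0.75 (adjusted p = 9.3e-05, limma), also lost with quantile normalization. Its partner Krt18 was at 6.97 in cells and 7.42 in tumors and was not called (adjusted p = 0.06, limma), though it was called higher in 7 of the other fits. Cdh1, the adhesion molecule of epithelia, was at 2.18 ± 0.20 in cells, with 2 reads in all, and at 3.91 ± 0.50 in tumors. It passed the filter only through the tumors. Snai2, a repressor of epithelial genes, fell from 7.81 ± 0.04 to 6.46 ± 0.16. Host and cancer cells were measured together in the tumors. Of the 22 tested rows of epithelial junctions and keratins, 7 were higher and 3 lower, with a median of 0.26 that turned to -0.08 with median centring, where 4 were higher and 8 lower. Of the 20 that reached the filter in a cell library, 5 were higher and 3 lower, with a median of 0.04. Epcam is not listed in the table.

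Leukocyte genes were higher in tumors in 23 of 24 tested rows, most of them with few or no reads in culture. Ptprc, which encodes the leukocyte antigen CD45 and is listed as a retained intron, had 2.0, 2.0, 2.35 and 2.0 in cells and 9.01, 8.92, 8.89 and 9.01 in tumors. A single read was seen over the 4 cell libraries against 2190 over the tumors, a ratio of 1807 with a 95% counting interval of 324 to 71388. Lcp1, an actin bundling protein of blood cells (processed transcript), rose from 2.09 ± 0.17 to 10.30 ± 0.18, Laptm5, a lysosomal protein of leukocytes (protein coding transcript), from 2.0 to 9.46 ± 0.25, and Coro1a, a coronin of leukocytes (retained intron), from 2.98 ± 0.57 to 8.41 ± 0.24. Inpp5d, a lipid phosphatase of blood cells (retained intron), was the row not called, at 5.69 in cells and 5.83 in tumors. Of the 24 rows 0 were lower, and the median difference was 4.63. For 15 of the 24, no cell library reached the filter, so that these rows were tested only because the tumors were high and had to differ. Of the other 9, 8 were called higher and 0 lower. Summed over the list, the normalized counts were 373 to 436 in the cells and 5613 to 7138 in the tumors. In bulk tissue, fewer cells of a type and less RNA per cell cannot be told apart, and the same holds for more of either.

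Macrophage genes included the largest difference of the comparison. Adgre1, which encodes the macrophage antigen F4/80, had 0 reads in all 4 cell libraries and values of 8.52, 8.24, 8.18 and 7.76 in the tumors, at least 352-fold higher against a floor of 3 reads over the group. Csf1r, the receptor that keeps macrophages alive (protein coding transcript), had 2.0, 2.34, 2.35 and 2.0 in cells and 9.79, 9.60, 9.44 and 8.99 in tumors. Mrc1, the mannose receptor CD206 (retained intron), had 2.0, 2.86, 3.53 and 3.05 in cells and 11.71, 11.75, 11.81 and 11.30 in tumors, 839-fold higher on the normalized count scale. For all 3 genes the lowest tumor stood several log2 units over the highest cell library. Lyz2, the lysozyme of myeloid cells, rose by 8.94 (SE 0.25, adjusted p = 2.95e-08, limma), the largest difference among the called rows with a symbol. Other genes of macrophages and myeloid cells with large differences were Itgam, an integrin chain of myeloid cells (processed transcript, at least 1419-fold), Selenop, a secreted selenoprotein (protein coding transcript, 2.09 to 10.04), Mpeg1, a pore-forming protein of macrophages (2.26 to 9.89), Ctsc and Ctss, lysosomal proteases (2.18 to 9.76 in a protein coding transcript and 2.16 to 9.35), and C1qa and C1qb, chains of complement component C1q (2.17 to 8.89 and 2.09 to 9.21). Of the 54 tested rows of macrophages and monocytes, 52 were higher and 1 lower, with a median of 5.15. In 43 of them no cell library reached the filter. Among the other 11, 9 were higher and 1 lower. The row that fell was Gpnmb, a glycoprotein that macrophages share with melanocytes and other cells (retained intron), at 9.28 ± 0.07 in cells and 8.43 ± 0.26 in tumors. The sum over the list was 1032 to 1237 in cells and 21631 to 28877 in tumors.

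Neutrophil genes rose too, with a wider spread between tumors. S100a9, a calcium-binding protein that neutrophils hold in large amounts, had 0 reads in every cell library and 7.87, 6.82, 7.68 and 9.41 in the tumors, at least 381-fold higher. Csf3r, the receptor of G-CSF (processed transcript), had 3.10, 2.34, 2.35 and 2.0 in cells and 7.89, 7.52, 7.92 and 8.91 in tumors. S100a8, the partner of S100a9 (retained intron), had 7.01, 6.12, 6.71 and 8.6 in the tumors. The fourth tumor was the highest for these 3 genes and the second the lowest. Slfn4, a schlafen gene of myeloid cells, rose by 6.51, and Cxcr2, the receptor that leads neutrophils into tissue, from 4.50 ± 0.18 to 6.53 ± 0.69. All 23 tested rows of the list were called higher, 19 of which no cell library carried past the filter, and the 4 others were also higher. The smallest difference was that of Ptgs2, the inducible cyclooxygenase (protein coding transcript), which was at 9.24 ± 0.05 in cells and 10.26 ± 0.88 in tumors (difference 1.02, adjusted p = 0.046, limma) and lost its call in 11 of the other fits.

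Lymphocyte genes were at low levels in the tumors. Cd3e, a chain of the T cell receptor complex, had 0 reads in the cells and 3.89, 3.28, 2.75 and 2.71 in the tumors, 24 reads in all, and did not pass the filter. Cd4 had 0 reads in the cells and 4.95, 3.95, 4.07 and 3.54 in the tumors, at least 17.9-fold higher, and passed the filter only through the tumors. Cd8a was at 3.93 in cells and 4.17 in tumors and was not called (adjusted p = 0.59, limma). Lck, a kinase of T cells, was at 2.80 and 3.80 and was not tested. Thy1, which fibroblasts also express (protein coding transcript), rose from 2.93 ± 1.10 to 6.12 ± 1.10. Only 14 of the 30 listed T cell rows could be tested, of which 8 were higher, 1 lower and 5 not called. Of the 8 rows that a cell library carried past the filter, 2 were higher and 1 lower. The row that fell was Tigit, an inhibitory receptor, which was at 7.53 ± 0.11 in the cultured carcinoma cells and at 6.45 ± 0.10 in tumors. Genes of cytotoxic cells were read alongside. Gzmb, the protease granzyme B, had 0 reads in the cells and 5.47, 5.84, 5.44 and 5.18 in the tumors, and Prf1, which encodes perforin, and Klrk1, the receptor NKG2D, rose to 4.26 ± 0.62 and 3.81 ± 0.57 from 0 reads. Cd244a, a receptor of NK cells and myeloid cells (transcript of the nonsense mediated decay kind), rose to 6.62 ± 0.30 from 0 reads, the largest difference of the 12 tested NK and cytotoxicity rows. Of these, 10 were higher and 2 lower, but just 3 had reached the filter in a cell library, 1 of them higher and 2 lower. Ncr1, the receptor that defines NK cells, was at 2.67 ± 0.26 in tumors and did not pass the filter.

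Genes of B cells, dendritic cells, mast cells, platelets and red blood cells were read next. Ms4a1, which encodes CD20 (retained intron), was at 3.57 ± 0.23 in cells and 4.39 ± 0.23 in tumors (adjusted p = 0.0137, limma), and the call was lost with quantile normalization and median centring. The B cell gene Cd79a is not listed, and of 7 tested rows 4 were higher and 1 lower, with 2 higher and 1 lower among the 5 that reached the filter in a cell library. Ebf1, a factor of B cells that stromal cells also use (processed transcript), gave the largest difference, 2.20. Among dendritic cell genes, Flt3, the receptor that supports growth of these cells (processed transcript), rose from 3.66 ± 0.37 to 5.26 ± 0.36. Ccr7, which guides dendritic cells to lymph nodes, rose from 0 reads to 4.07 ± 0.23. Xcr1, a receptor of cross-presenting dendritic cells, rose from 3.24 ± 0.02 to 4.26 ± 0.24. Wdfy4, needed for cross-presentation (protein coding transcript), rose from 2.88 ± 0.40 to 8.05 ± 0.37. Fscn1, an actin bundler that mature dendritic cells share with carcinoma cells (protein coding transcript), dropped by 0.95. Of 18 tested rows 13 were higher and 1 lower, and of the 11 that reached the filter in a cell library 6 were higher and 1 lower. The mast cell genes Mcpt4, Cpa3 and Kit had 0 reads in the cell libraries. Mcpt4, a chymase, was at 5.33 ± 0.85 in tumors, Cpa3, a carboxypeptidase, at 5.15 ± 0.63 and Kit, the receptor of stem cell factor (retained intron), at 6.22 ± 0.49. Ms4a2 is not listed. Of 6 tested mast cell, basophil and eosinophil rows 5 were higher and 0 lower, all 5 of them with no cell library past the filter, and the 1 row that reached it in a cell library was not called. Pf4, a chemokine of platelets that macrophages also make (retained intron), rose to 7.38 ± 0.22 from 0 reads. Of 5 tested platelet rows 4 were higher and 0 lower, and of the 2 that reached the filter in a cell library 1 was higher. The beta globin Hbb-bs, a red blood cell gene, had 2.0, 2.0, 2.62 and 2.34 in cells and 8.95, 8.48, 8.99 and 9.60 in tumors, with no overlap of the groups.

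**Figure D2:**
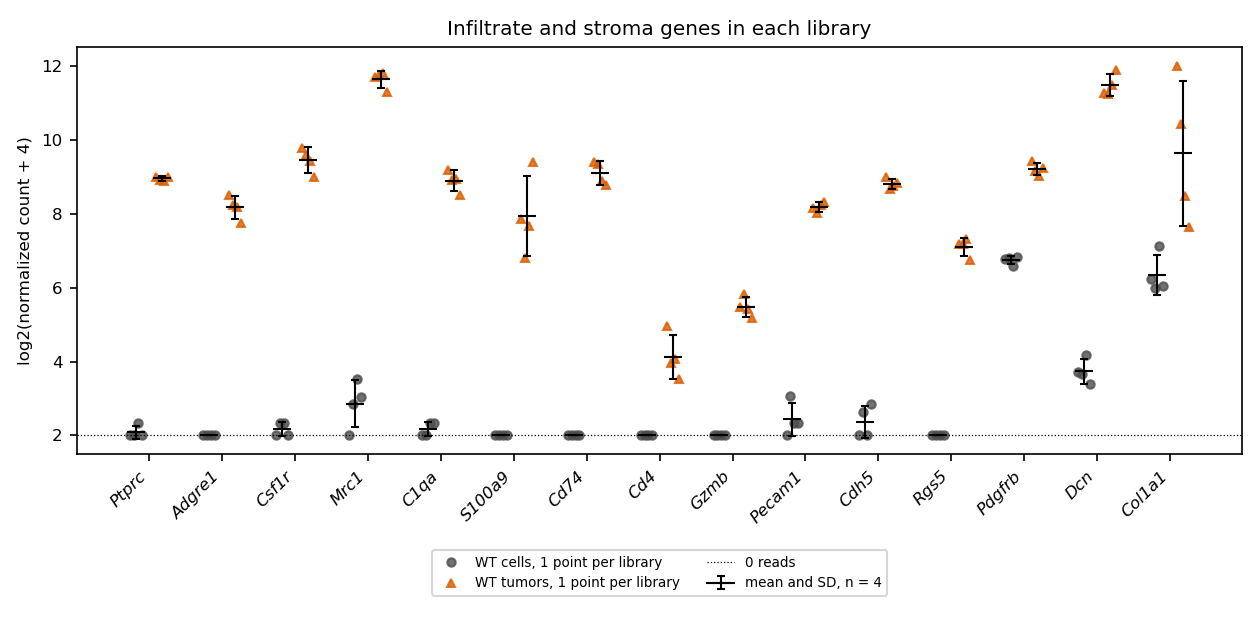
Values of 15 infiltrate and stroma genes in each library, on the scale log2(normalized count + 4), with WT cells as circles, WT tumors as triangles and the mean and SD of 4 libraries as bars. The dotted line at 2 marks 0 reads. The groups do not overlap for any of the 15 genes, while over all tested rows with a symbol 55.9% did not overlap. For all but Mrc1, Pdgfrb, Dcn and Col1a1 no cell library reached the filter, and the tumors alone brought the row into the test. S100a9 and Col1a1 have the widest spread among the tumors.

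Vessel genes rose in all tumors by similar amounts. Pecam1, which encodes CD31 (retained intron), had 2.0, 3.06, 2.35 and 2.34 in cells and 8.15, 8.02, 8.25 and 8.33 in tumors, 176-fold higher. Cdh5, the cadherin of endothelial junctions (protein coding transcript), had 2.0, 2.62, 2.0 and 2.85 in cells and 8.99, 8.67, 8.76 and 8.82 in tumors, 327-fold higher. The 4 tumors lay close together for both genes and far from the cells. Kdr, the main receptor of VEGF (retained intron), rose from 3.49 ± 0.32 to 7.20 ± 0.28, and Tie1, an endothelial receptor kinase (processed transcript), from 0 reads to 6.69 ± 0.18. Of the 53 tested endothelial rows 48 were higher and 0 lower, with a median of 2.97. In 36 of them no cell library reached the filter, and of the other 17, 12 were higher and 0 lower. Rgs5, a marker of pericytes, had 0 reads in cells and 7.17, 7.17, 7.32 and 6.75 in tumors, at least 164-fold higher. Pdgfrb, the receptor that pericytes and fibroblasts carry, was already present in culture at 6.77, 6.79, 6.59 and 6.84 and rose to 9.43, 9.15, 9.03 and 9.25, 5.73-fold. Myh11, the myosin of smooth muscle, rose from 0 reads to 4.22 ± 0.62, whereas Mylk, the myosin light chain kinase (retained intron), fell from 8.25 ± 0.08 to 7.04 ± 0.30. Of 15 tested pericyte and smooth muscle rows, 11 were higher and 1 lower, and of the 7 that reached the filter in a cell library 3 were higher and 1 lower.

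Fibroblast and matrix genes were less uniform. Dcn, the proteoglycan decorin (retained intron), had 3.71, 3.66, 4.18 and 3.38 in cells and 11.26, 11.25, 11.50 and 11.89 in tumors, 304-fold higher. Col1a1, a chain of type I collagen, had 6.22, 5.99, 7.13 and 6.05 in cells and 12.01, 10.42, 8.48 and 7.63 in tumors. No tumor overlapped the cells, but the last tumor lay close over the highest cell library, and the mean rose by 3.29 (SE 0.83, adjusted p = 0.0103, limma). Mmp2, a gelatinase of fibroblasts, had 2 reads over the cells and 7.36, 6.47, 5.24 and 4.39 in the tumors, with the same order of tumors as Col1a1. Lum, the proteoglycan lumican, rose from 2.09 ± 0.17 to 5.28 ± 0.66. Pdgfra, a receptor of fibroblasts (non stop decay transcript), had 2.0, 5.91, 5.50 and 5.48 in cells and 6.79, 6.73, 6.86 and 7.06 in tumors, and the first cell library stood apart with 0 reads. The difference was 2.14 (adjusted p = 0.0446, limma). Without that library the difference was 1.23 (adjusted p = 0.000318, limma), and the call was lost in 9 of the other fits. Of 38 tested fibroblast rows 28 were higher and 2 lower, against 28.5% and 27.7% over all rows with a symbol. Of the 28 that reached the filter in a cell library 18 were higher and 2 lower. Pcolce, which enhances the processing of procollagen (retained intron), went the other way, from 11.54 ± 0.06 to 10.31 ± 0.28.

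Of 19 tested collagen rows, 15 were higher, 0 lower and 4 not called, and 17 of the 19 had reached the filter in a cell library, 13 of them higher. Col3a1, a chain of type III collagen (retained intron), rose from 7.09 ± 0.19 to 10.17 ± 1.02, and Col15a1, a collagen of basement membranes, from 2.09 ± 0.17 to 7.03 ± 0.43. The summed collagen counts were 987 to 1430 in cells and 4265 to 15973 in tumors, so that the tumors spread more widely than the cells. Of 52 tested rows of matrix remodelling, 39 were higher and 2 lower, and of the 38 that reached the filter in a cell library 25 were higher and 2 lower. Fn1, which encodes fibronectin (retained intron), had 7.38, 7.40, 8.35 and 7.45 in cells and 11.93, 9.75, 10.07 and 10.43 in tumors. Mmp9, the gelatinase of myeloid cells, rose from 3.74 ± 0.54 to 7.31 ± 0.45, and Nid2, a basement membrane protein (retained intron), from 0 reads to 7.82 ± 0.35. Timp1, an inhibitor of metalloproteinases, fell from 8.36 ± 0.11 to 7.36 ± 0.28, and Serpinh1, the collagen chaperone HSP47 (protein coding transcript), from 5.09 ± 0.41 to 3.69 ± 0.36.

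Tissue next to the tumor was a further possible source of RNA. Of 22 listed skeletal muscle rows 9 could be tested, 4 of them higher and 2 lower, and the defining genes Myh4 (2.0 in cells, 2.13 in tumors) and Ckm (processed transcript, 2.17 and 2.07) were at or near 0 in both groups. Acta1, the actin of skeletal muscle, fell from 4.56 ± 0.40 to 3.70 ± 0.15, a call lost in 3 other fits, and Ttn, which encodes titin (protein coding transcript), had 4.05, 3.89, 4.18 and 4.25 in cells and 6.72, 5.96, 5.99 and 7.90 in tumors. The median of the muscle rows, 0.32, was -0.09 with quantile normalization and -0.02 with median centring. Keratinocyte genes did not pass the test in either direction (0 of 9), and Krt5 was at 5.18 in cells and 4.82 in tumors. The median of the 9 rows was 0.11, and it turned negative, -0.32 and -0.23, under the same 2 scalings. Adipocyte rows were higher in 9 of 10, but in 7 of the 10 no cell library reached the filter, and of the other 3, 2 were higher. The largest difference was that of Cd36, a fatty acid transporter that endothelium and macrophages share (protein coding transcript, 2.09 to 6.24). Plin1, the lipid droplet protein of fat cells, was at 2.57 ± 0.49 and 3.49 ± 0.30, and its call was lost in 9 of the other fits. Adipoq is not listed. For nerve, Pmp22, a myelin protein that fibroblasts and endothelium share, rose from 2.52 ± 0.43 to 5.55 ± 0.70, Erbb3, a receptor that epithelia share, fell from 8.47 ± 0.10 to 7.92 ± 0.12 (lost with rescaling to the total without the 20 highest rows), and Sox10 is not listed.

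In 6 of 10 tested rows of MHC class II, which presents antigen to CD4 T cells, no cell library reached the filter. Cd74, the invariant chain of MHC class II (retained intron), had 0 reads in cells and 9.40, 9.35, 8.88 and 8.78 in tumors, at least 675-fold higher. H2-Aa and H2-Ab1, the chains of a class II molecule (retained introns), rose to 7.33 ± 0.46 and 7.60 ± 0.24, and Ciita, the factor that switches class II genes on (retained intron), from 2.24 ± 0.30 to 5.21 ± 0.81. Of 10 tested class II rows, 9 were higher and 0 lower, and 4 had reached the filter in a cell library, 3 of them higher. For class I, H2-K1, which presents peptides to CD8 T cells (retained intron), had 2.0, 2.86, 2.35 and 2.0 in cells and 9.0, 8.69, 8.45 and 8.43 in tumors. B2m, its light chain, was abundant in both, at 12.48 ± 0.07 and 12.73 ± 0.07 (difference 0.24, adjusted p = 0.00415, limma), and the sign of its difference turned with median centring (-0.10). Psmb8, a subunit of the immunoproteasome (protein coding transcript), rose from 2.16 ± 0.31 to 4.63 ± 0.25. Tap1, a pump for peptides (retained intron), was at 3.66 ± 0.67 and 4.65 ± 0.68 and was not called (adjusted p = 0.0885, limma). Calr, a chaperone of peptide loading that is also a general chaperone of the endoplasmic reticulum (retained intron), fell from 12.80 ± 0.03 to 11.90 ± 0.12. Of 23 tested class I rows 14 were higher and 1 lower, and of the 16 that a cell library carried past the filter, 7 were higher and 1 lower.

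The interferon response was called higher in most of its members. Of 80 tested rows of the list, 70 were higher and 2 lower, with a median of 3.23, and of the 38 that reached the filter in a cell library 28 were higher and 2 lower. Several of these genes hold, within the 250 bases before their start, a match to GAAA, 2 bases of any kind and GAAA again, searched on both strands, the core of the element that interferon-induced factors bind. The windows below show 60 bases around such a match, for 5 members of the list with large differences, read 5′ to 3′ on the strand of the gene from RefSeq on GRCm38.p6, with the match in capitals. Isg15 (chr4:156200850-156200909, minus strand) holds 3 overlapping matches, Cxcl10 (chr5:92349068-92349127) and Ifi207 (chr1:173741816-173741875), also on the minus strand, hold 1 each on the gene strand, and Ifit3 (chr19:34583382-34583441) and Gbp2 (chr3:142620579-142620638), on the plus strand, hold it on the other strand. The window of Ifit3 shows 1 of the 2 matches in its 250 bases.
Isg15: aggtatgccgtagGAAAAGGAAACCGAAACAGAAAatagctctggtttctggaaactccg
Ifit3: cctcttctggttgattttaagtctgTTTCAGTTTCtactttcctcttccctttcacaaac
Cxcl10: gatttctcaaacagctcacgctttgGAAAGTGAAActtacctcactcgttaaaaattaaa
Gbp2: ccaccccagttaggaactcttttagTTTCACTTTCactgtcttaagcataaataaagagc
Ifi207: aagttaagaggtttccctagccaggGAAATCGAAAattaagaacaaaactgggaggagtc
Over the list, 34 of the 64 genes matched to RefSeq held the motif on either strand (53.1%), against 3.46% of 27025 genes, and 30 of the 51 matched genes that were called higher held it. A match describes the sequence and is no evidence that a factor bound there in these cells.

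The genes behind these windows were low in culture and spread widely among the tumors. Ifit3, which blocks viral RNA, had 2.89, 3.06, 3.39 and 3.05 in cells and 7.21, 6.91, 5.97 and 5.46 in tumors, 19.1-fold higher. Isg15, a ubiquitin-like protein, had 2.36, 2.34, 2.62 and 2.62 in cells and 6.42, 6.79, 5.21 and 5.46 in tumors. Cxcl10, the chemokine that draws T cells and NK cells (retained intron), had 2.65, 3.06, 3.39 and 2.62 in cells and 6.78, 7.15, 5.52 and 5.40 in tumors. For these 3 genes tumors 1 and 2 were the higher pair and tumors 3 and 4 the lower, and every tumor was over every cell library. Gbp2, a GTPase against pathogens (transcript of the nonsense mediated decay kind), rose from 4.70 ± 0.16 to 8.45 ± 0.46, Ifi207, a member of the AIM2-like family, from 2.09 ± 0.18 to 7.77 ± 0.49, and Irf7, the factor that amplifies interferon (retained intron), from 2.56 ± 0.68 to 7.43 ± 0.60. Slfn9, a schlafen gene (protein coding transcript), fell from 7.72 ± 0.12 to 6.75 ± 0.33. The leukocyte list rose together with these genes, as given above, and its part in the interferon genes was not tested.

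Chemokine and cytokine genes were higher as well. Ccl2, which draws monocytes (retained intron), was made in culture, at 4.62, 5.14, 5.10 and 3.98, and stood at 8.18, 7.60, 8.09 and 8.22 in tumors, 11.1-fold higher. Cxcl1, a ligand of CXCR2 (retained intron), rose from 4.02 ± 0.42 to 6.92 ± 0.58, Cxcl9, induced by interferon gamma (retained intron), from 0 reads to 5.20 ± 0.41, Ccl5 from 0 reads to 3.88 ± 0.37, and Ccl6, a chemokine of myeloid cells (retained intron), from 0 reads to 9.24 ± 0.30. Of 21 tested chemokines 18 were higher and 0 lower, and of the 10 that a cell library carried past the filter 7 were higher. Among cytokines, Il1b, which encodes interleukin 1 beta (retained intron), had 0 reads in the cells and 8.01, 7.37, 8.10 and 9.10 in tumors, at least 382-fold higher. Tnf rose from 2.31 ± 0.36 to 4.22 ± 0.25, and Csf1, the ligand of CSF1R (retained intron), from 6.01 ± 0.28 to 7.21 ± 0.26. Btc, the growth factor betacellulin (retained intron), fell from 6.52 ± 0.05 to 5.12 ± 0.26. Of 40 tested cytokines and growth factors 26 were higher and 2 lower, and of the 29 that reached the filter in a cell library 15 were higher and 2 lower. Complement component C3 (processed transcript) had 3.95, 3.23, 3.06 and 4.08 in cells and 8.08, 7.81, 7.83 and 7.55 in tumors, and 15 of 20 complement rows were higher and 0 lower, with 7 higher among the 12 that a cell library carried past the filter.

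Genes of immune checkpoints and brakes were higher in 20 of 27 tested rows and lower in 2, and of the 18 that reached the filter in a cell library 11 were higher and 2 lower. Cd274, which encodes PD-L1, had 3.83, 4.26, 4.42 and 4.79 in cells and 7.01, 7.08, 6.63 and 7.36 in tumors, 7.71-fold higher (adjusted p = 1.21e-05, limma). Sirpa, the receptor of CD47 on macrophages (processed transcript), rose from 2.66 ± 0.58 to 10.12 ± 0.31. Ctla4 had 1 read over the cell libraries and 46 over the tumors and was not tested, and Pdcd1lg2 is not listed.

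**Figure D3:**
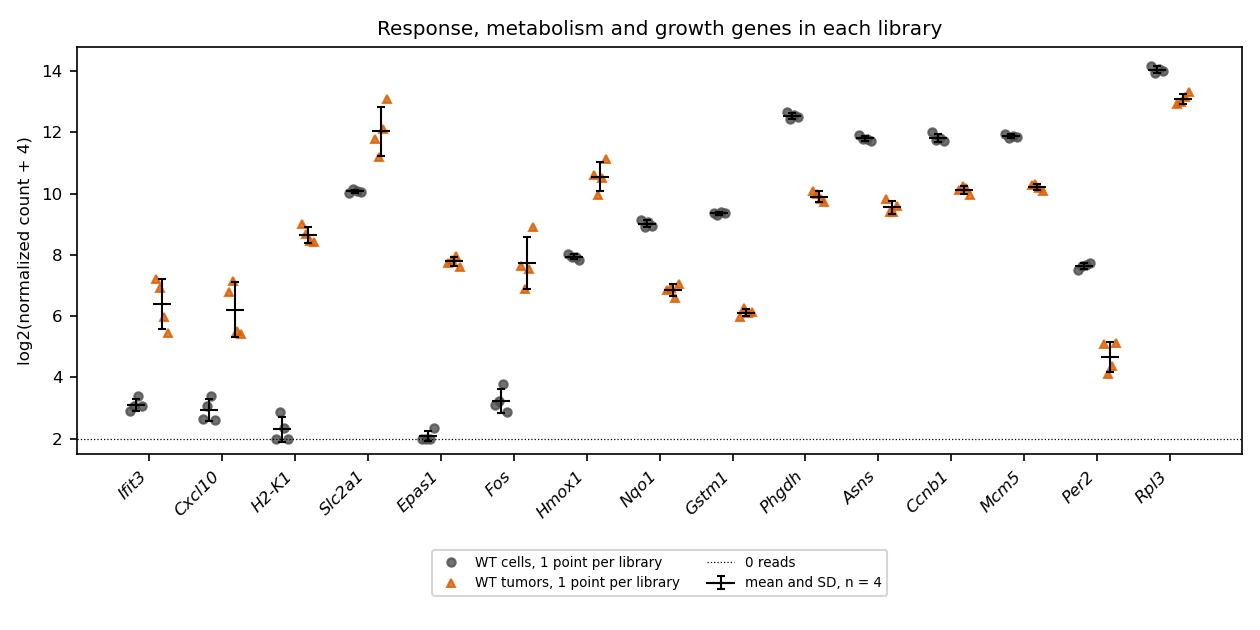
Values of 15 genes of interferon response, metabolism, stress and growth in each library, on the scale log2(normalized count + 4), with WT cells as circles, WT tumors as triangles and the mean and SD of 4 libraries as bars. From Ifit3 to Hmox1 the tumors lie over the cells, and from Nqo1 to Rpl3 under them, with no overlap of the groups. Over all tested rows with a symbol, 55.9% did not overlap. For H2-K1 and Epas1 no cell library reached the filter.

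Genes of hypoxia and glycolysis did not move as one. Slc2a1, the glucose transporter GLUT1 (protein coding transcript), had 10.03, 10.15, 10.08 and 10.04 in cells and 11.78, 11.18, 12.10 and 13.08 in tumors, 4.48-fold higher (adjusted p = 0.000952, limma). Its promoter carries ACGTG, the core of the hypoxia response element, on the gene strand (chr4:119108682-119108741, plus strand, GRCm38.p6), shown with the match in capitals.
Slc2a1: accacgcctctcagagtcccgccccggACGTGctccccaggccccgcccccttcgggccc
This short motif was present before 29 of 52 matched genes of the list (55.8%), against 18.5% of all genes, and before 9 of the 16 matched genes that were called higher. Epas1, which encodes the oxygen-sensing factor HIF-2 alpha and is typical of endothelium and macrophages (processed transcript), had 2.0, 2.0, 2.0 and 2.34 in cells and 7.74, 7.84, 7.95 and 7.61 in tumors. Of the 48 tested rows 20 were higher, 6 lower and 22 not called, with a median of 0.59 that ranged from 0.24 to 0.91 over the scalings. Vegfa, the main vessel growth factor (retained intron), was at 5.63 ± 0.25 and 6.28 ± 0.56 and was not called (adjusted p = 0.0784, limma). Car9, which hypoxia induces strongly in many carcinomas (processed transcript), was at 2.54 and 2.64 and did not pass the filter. Gbe1, the glycogen branching enzyme (retained intron), fell from 7.89 ± 0.06 to 6.80 ± 0.36.

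Lipid genes and immediate early genes were higher. Sqle, an enzyme of cholesterol synthesis (retained intron), had 6.01, 6.01, 5.94 and 6.07 in cells and 7.16, 7.24, 7.28 and 7.15 in tumors, 2.39-fold higher. Abca1, which exports cholesterol and marks loaded macrophages, rose from 3.00 ± 0.64 to 9.30 ± 0.11. Of 35 tested rows 21 were higher and 1 lower. Immediate early genes answer within minutes to growth signals and stress, handling of tissue included. Fos, a subunit of the AP-1 factor (processed transcript), had 3.10, 3.23, 3.78 and 2.85 in cells and 7.64, 6.87, 7.54 and 8.90 in tumors, 43.0-fold higher, Egr1 rose from 2.66 ± 0.72 to 5.78 ± 0.43, and Jun, already high in culture, from 11.05 ± 0.06 to 11.88 ± 0.33. Of 40 tested rows 28 were higher and 4 lower, and 37 of the 40 had reached the filter in a cell library, 25 of them higher. The tumors were frozen rapidly, the interval is not given in the sources used here, and its part was not tested.

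Genes of the clock and of glucocorticoid response were called in both directions. Per2, a repressor of the circadian clock, had 7.51, 7.62, 7.65 and 7.73 in cells and 5.07, 4.12, 4.35 and 5.11 in tumors, and fell 8.53-fold (adjusted p = 6.49e-06, limma). Dbp, an output gene of the clock (retained intron), fell from 6.81 ± 0.17 to 4.46 ± 0.78, and Tsc22d3, the glucocorticoid-induced protein GILZ (processed transcript), from 6.23 ± 0.46 to 4.28 ± 0.41. Lcn2, a protein of neutrophils and inflamed epithelia (processed transcript), rose from 0 reads to 6.47 ± 0.93. Sgk1, a kinase that serum and glucocorticoids induce (protein coding transcript), fell from 4.81 ± 0.35 to 2.61 ± 1.23, with 0 reads in 3 tumors. Fkbp5, a glucocorticoid-induced regulator of the receptor (processed transcript), and Per1, a partner of Per2 (protein coding transcript), had 0 reads in cells and 55 and 74 in tumors and did not pass the filter. Of 25 tested rows 8 were higher, 10 lower and 7 not called, and the median of -0.08 became 0.29 when libraries were rescaled to the total without the 20 highest rows. Time of day at collection is not given in the sources used here.

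Most cell cycle genes fell. Ccnb1, the cyclin of mitosis (retained intron), had 12, 11.74, 11.80 and 11.73 in cells and 10.12, 10.25, 10.19 and 9.94 in tumors, 3.25-fold lower. Mcm5, a subunit of the replicative helicase (retained intron), had 11.95, 11.80, 11.88 and 11.86 in cells and 10.27, 10.30, 10.17 and 10.09 in tumors, 3.19-fold lower. The libraries of each group lay close together, and the groups did not overlap. Cdk4, the kinase of the G1 phase (protein coding transcript), dropped by 1.77 and Top2a, topoisomerase 2 alpha (processed transcript), by 1.22. Of 82 tested rows 64 were lower, 4 higher and 14 not called, all 82 with reads past the filter in the cells, and 58 to 67 were lower under the 3 other scalings. The median was -1.19 and stayed between -1.53 and -0.82. Ccnd2, a D-type cyclin (protein coding transcript), rose from 4.22 ± 0.19 to 6.69 ± 1.20, and the row of Mki67, a protein coding transcript near the floor, was not called. In the same samples the summed counts of the leukocyte list were higher, as given above, those of the endothelial list were 1975 to 2142 in cells and 7985 to 8872 in tumors, and those of the fibroblast list 7328 to 8194 and 15980 to 25978. Their part in the fall was not tested.

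Genes of protein synthesis and growth were lower as well. Of 78 tested rows of cytosolic ribosomal proteins 66 were lower (84.6%) and 0 higher. The median of -0.95 was -0.40 with quantile normalization, -0.57 with rescaling to the total without the 20 highest rows and -1.29 with median centring. Under these scalings 62, 57 and 69 rows were lower. Rpl3 (protein coding transcript) had 14.17, 13.93, 14.08 and 13.99 in cells and 12.92, 12.99, 13.14 and 13.30 in tumors, 1.92-fold lower, and Rps12 (transcript of the nonsense mediated decay kind) dropped by 1.38. Of 40 rows of ribosome biogenesis and MYC targets 27 were lower and 1 higher. Their median of -0.90 was -0.50, -0.54 and -1.25 under the same 3 scalings, with 26, 25 and 30 rows lower. Ncl, which encodes nucleolin (retained intron), fell from 13.06 ± 0.06 to 11.99 ± 0.04, Nop56, a nucleolar protein (retained intron), from 12.45 ± 0.08 to 11.10 ± 0.12, and Hspd1, the mitochondrial chaperonin (protein coding transcript), from 13.57 ± 0.05 to 11.95 ± 0.03. Odc1, the first enzyme of polyamine synthesis (transcript of the nonsense mediated decay kind), was the exception, from 4.58 ± 0.47 to 6.47 ± 0.56. Myc (protein coding transcript) was at 5.27 in cells and 5.55 in tumors and was not called. Of the 15 mitochondrially encoded genes 13 were lower and 0 higher as deposited, but the median of -0.62 turned to 0.01 with quantile normalization, where 4 were lower and 1 higher. mt-Nd1, a subunit of complex I, had 14.84, 14.74, 14.85 and 14.87 in cells and 13.92, 13.93, 13.91 and 13.68 in tumors, whereas mt-Co1, a subunit of complex IV, fell by 0.39 as deposited and was higher by 0.26 with quantile normalization.

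The amino acid response gave the deepest median fall of the lists. Phgdh, the first enzyme of serine synthesis (retained intron), had 12.66, 12.45, 12.56 and 12.49 in cells and 10.09, 9.99, 9.82 and 9.71 in tumors, 6.23-fold lower (adjusted p = 8.04e-08, limma). Asns, asparagine synthetase and a target of ATF4 (processed transcript), had 11.92, 11.79, 11.80 and 11.72 in cells and 9.84, 9.39, 9.40 and 9.60 in tumors, 4.73-fold lower. Chac1, which degrades glutathione, dropped by 1.23 and Ddit3, the stress factor CHOP (protein coding transcript), by 1.21. Of 39 tested rows 29 were lower (74.4%) and 3 higher. The median was -1.36, and between -1.70 and -0.90 under the other scalings, where 29 to 31 rows were lower. Chaperones were lower in 29 of 43 rows and higher in 5. Their median of -0.84 was -0.41 with quantile normalization, -0.46 with rescaling and -1.18 with median centring, with 25, 25 and 30 rows lower. Hspa5, the chaperone BiP of the endoplasmic reticulum (transcript of the nonsense mediated decay kind), fell from 13.33 ± 0.07 to 12.45 ± 0.09, and Hsp90aa1 (retained intron) from 8.02 ± 0.24 to 6.72 ± 0.17. The heat-inducible Hspa1a went the other way, at 2.89, 3.06, 3.06 and 3.05 in cells and 6.5, 5.55, 6.45 and 7.34 in tumors, and so did its copy Hspa1b, by 3.68. These 2 genes are nearly identical in sequence, and how reads were shared between them is uncertain.

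Among NRF2 target genes, more were lower than higher in tumors. Gstm1, a glutathione transferase (processed transcript), had 9.36, 9.29, 9.41 and 9.37 in cells and 5.96, 6.26, 6.11 and 6.13 in tumors (difference -3.25, adjusted p = 1.69e-08, limma). Nqo1, a quinone reductase, had 9.15, 8.90, 9.06 and 8.95 in cells and 6.84, 6.92, 6.60 and 7.06 in tumors, 4.56-fold lower. Gclm, the modifier subunit of glutathione synthesis (processed transcript), dropped by 1.35. Hmox1, heme oxygenase, which macrophages that clear red blood cells also express (retained intron), rose from 8.04, 7.94, 7.94 and 7.83 to 10.62, 9.95, 10.52 and 11.12, 6.55-fold. Slc7a11, the cystine transporter (retained intron), was at 8.11 ± 0.14 and 7.66 ± 0.59 and was not called (adjusted p = 0.178, limma). Of 32 tested rows 18 were lower, 3 higher and 11 not called, and 17 to 22 were lower under the other scalings. The median of -0.99 became -0.40 with quantile normalization, -0.64 with rescaling and -1.33 with median centring. It was -0.55 with no filter and -1.05 with a mean of at least 25 normalized counts. The antioxidant response element is commonly written TGACNNNGC, and 8 of 35 matched genes held that motif in their 250 bases (22.9%), against 11.5% of all genes. Gclm holds it on the other strand (chr3:122245398-122245457, plus strand, GRCm38.p6).
Gclm: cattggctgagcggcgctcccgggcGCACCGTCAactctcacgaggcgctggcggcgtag
Nqo1 holds no match in this window, which says nothing of sites elsewhere.

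**Figure D4:**
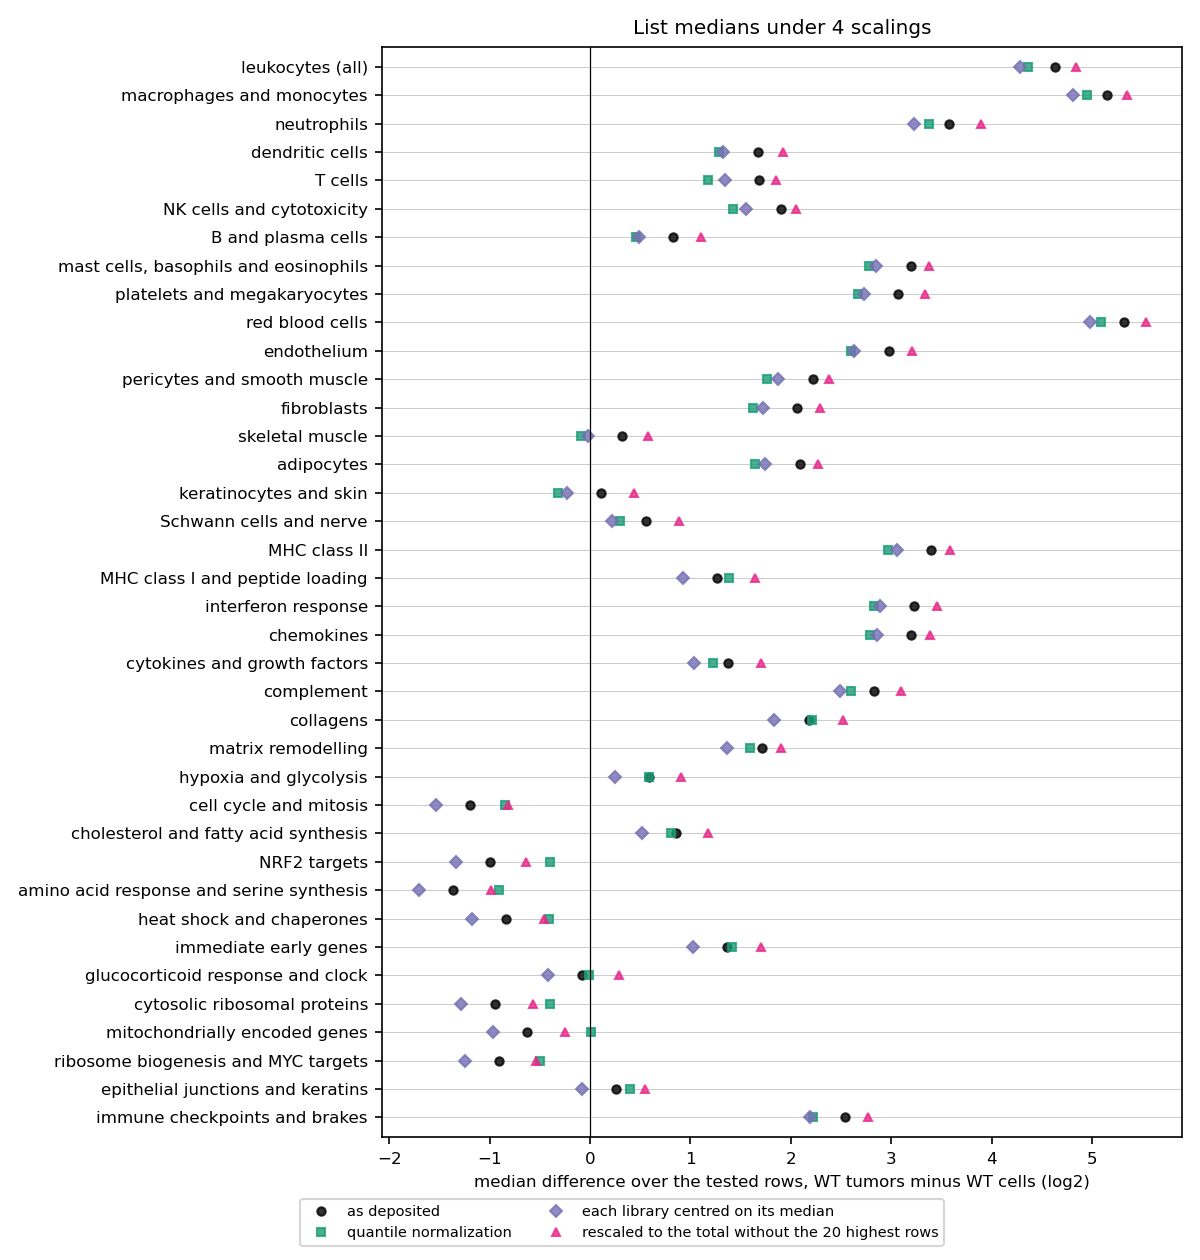
Median difference, WT tumors minus WT cells, over the tested rows of each gene list under the deposited values and 3 other scalings. Lists far from 0 keep their side, while skeletal muscle, keratinocytes, mitochondrially encoded genes, glucocorticoid response and clock, and epithelial junctions change sign under at least 1 of them.

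Most of the widest falls belonged to no list. Dnajc7, a cochaperone, had 6.91, 6.46, 7.18 and 6.84 in cells and 0 reads in all 4 tumors, at least 167-fold lower, for a transcript of a later annotation release. Id3, an inhibitor of differentiation factors (retained intron), had 8.74, 8.42, 8.67 and 8.38 in cells and 6.52, 4.64, 4.07 and 3.91 in tumors, 11.2-fold lower. Eya2, a phosphatase and coactivator of development (processed transcript), fell from 7.35 ± 0.11 to 4.18 ± 0.54, Khk, which phosphorylates fructose (protein coding transcript), from 5.79 ± 0.17 to 2.75 ± 0.59, Car6, a carbonic anhydrase (processed transcript), from 5.71 ± 0.25 to 2.73 ± 0.29, and Gstm2, a glutathione transferase on the NRF2 target list (retained intron), from 7.44 ± 0.07 to 4.49 ± 0.26. Other rows of this kind were unsteady among the tumors. Pgam1-ps2, a pseudogene that can share reads with Pgam1, was at 7.20 in the first tumor and had 0 reads in the other 3. Vps9d1 (retained intron) had 5.22, 2.0, 5.55 and 2.0, and Adck5 (transcript of the nonsense mediated decay kind), Idh3a (also of that kind), Mrps23 (protein coding transcript) and Gcat had tumor SDs of 2.03, 2.32, 1.32 and 1.67. A row that is a single transcript can drop to 0 while other transcripts of its gene, not listed here, take its reads, which was not tested. Among the wide rises outside the lists was that of Igfbp3, a binding protein of insulin-like growth factors, at 2.65, 2.0, 2.35 and 2.62 in cells and 9.71, 9.53, 10.15 and 10.65 in tumors, 796-fold higher.

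The tumors also differed among themselves in a pattern that the labels do not name. The fourth tumor was the highest for S100a9, Il1b, Fos, Slc2a1, Hmox1 and Hspa1a and the lowest for Adgre1, Csf1r, Mrc1 and Lyz2. The first tumor was the highest for Col1a1, Mmp2 and Fn1. These are values of single tumors, with no test.

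The same change from culture to tumor was then read in the other genotypes, which share no library with the WT pair, although the KEAP1-KO tumors of Experiment A grew in the same mice as the WT tumors. Of the 7623 rows called in WT, 7316 (96.0%) had the same sign in DKO and 6472 (84.9%) were also called there, and 7299 (95.7%) had the same sign in KEAP1-KO, 6269 (82.2%) with a call. The matching shares over all tested rows are not given here. Rows that passed the filter only through the WT tumors are among the 7623. The difference of the 2 differences was tested for each row in 1 limma fit of all 28 libraries. The fit had no term for the mouse, so tumors from opposite flanks of a mouse were treated as independent. DKO tumors came from Experiment B, with a KEAP1-KO tumor on the other flank. Genotype, experiment and the tumor on the other flank thus changed together between WT and DKO, and their separate parts were not tested. Over the 16565 rows with a symbol in that fit, the WT difference departed from that of DKO in 1328 (8.02%), 813 more positive in WT (4.91%) and 515 more negative (3.11%). It departed from that of KEAP1-KO in 1571 (9.48%), 1194 more positive (7.21%) and 377 more negative (2.28%). Over all rows, with or without a symbol, the larger side changed with median centring for KEAP1-KO and with quantile normalization for DKO.

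**Figure D5:**
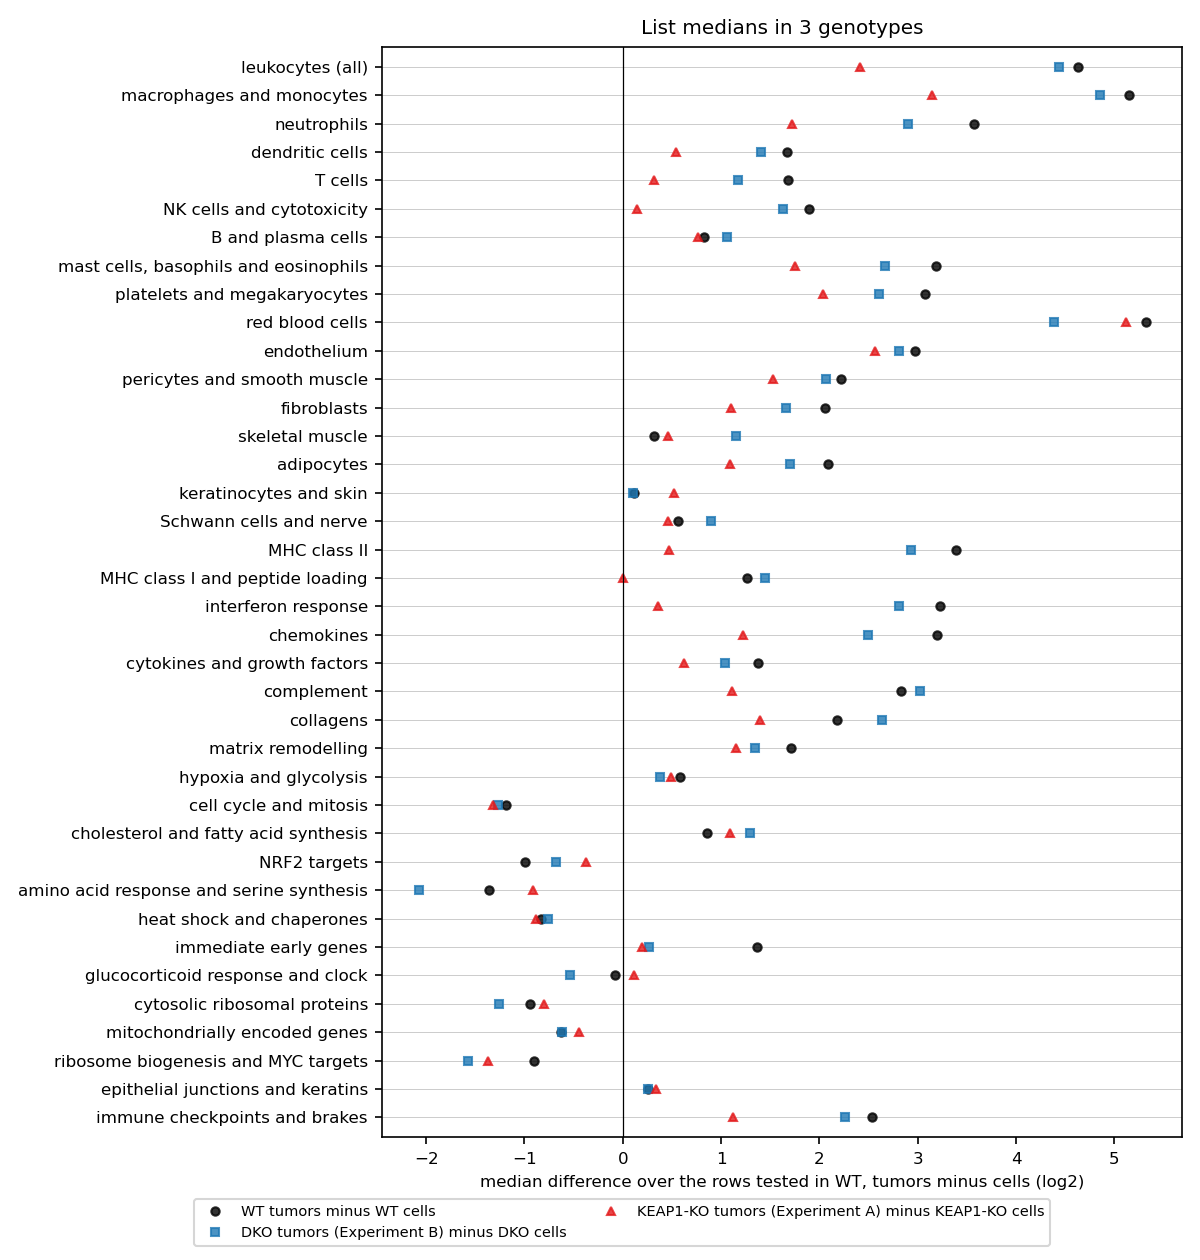
Median difference, tumors minus cells, over the rows of each list tested in WT, for WT (circles), DKO with tumors of Experiment B (squares) and KEAP1-KO with tumors of Experiment A (triangles). The KEAP1-KO medians of leukocyte, MHC and interferon lists lie nearer to 0 than the WT and DKO medians, and the WT median of immediate early genes lies apart from both. Many rows of the leukocyte, MHC and interferon lists passed the filter only through the WT tumors, which favours a larger difference in WT.

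The infiltrate lists were compared first. Rows of these lists were tested where the WT libraries passed the filter, and many passed only through the WT tumors, which favours a larger difference in WT. Counts are therefore also given over the rows that reached the filter in a WT cell library, for which the background was 1218 of 12487 rows departing from DKO (9.75%, with 5.93% more positive in WT and 3.82% more negative) and 894 from KEAP1-KO (7.16%, with 4.41% more positive and 2.75% more negative). The median difference of the leukocyte list was 4.63 in WT, 4.44 in DKO and 2.41 in KEAP1-KO, and 20 of 24 rows departed from KEAP1-KO, 19 of them more positive in WT, against 4 of 24 from DKO. Over the 9 leukocyte rows that reached the filter in a cell library these counts were 5 (4 more positive) and 2 (0 more positive, 2 more negative). The medians of those 9 rows were 3.50 in WT, 4.22 in DKO and 1.97 in KEAP1-KO. For macrophages the medians were 5.15, 4.85 and 3.14, with 44 of 54 rows departing from KEAP1-KO and 3 from DKO, and for neutrophils 3.57, 2.91 and 1.73, with 19 of 23 and 11 of 23. Over the rows that reached the filter in a cell library the counts were 6 and 2 of 11 for macrophages and 3 and 3 of 4 for neutrophils. In WT, DKO and KEAP1-KO, the medians of those rows were 4.68, 3.86 and 1.91 for macrophages. For neutrophils they were 1.98, 1.99 and -0.21. Ptprc rose by 6.87 in WT, 6.46 in DKO (adjusted p of the difference from WT = 0.339, limma) and 4.29 in KEAP1-KO (adjusted p = 1.33e-08, limma). Of the interferon genes, 63 of 80 rows (78.8%) were more positive in WT than in KEAP1-KO and 0 more negative, and the medians were 3.23, 2.81 and 0.36. Of the 38 interferon rows that reached the filter in a WT cell library, 24 were more positive in WT than in KEAP1-KO and 0 more negative, 5 departed from DKO, and the medians were 1.40, 1.54 and 0.03. Ifit3 rose by 3.29 in WT and 2.99 in DKO and had a difference of -0.52 in KEAP1-KO (adjusted p = 2.29e-05, limma), and Cxcl10 had 3.28, 3.44 and -0.62. Class II genes had medians of 3.39, 2.93 and 0.47, with 9 of 10 rows departing from KEAP1-KO and 0 of 10 from DKO, and 3 and 0 of the 4 that reached the filter in a cell library. Over those 4 rows the medians were 1.26, 0.85 and -0.94. The endothelial medians were 2.97, 2.81 and 2.56, with 11 of 53 rows departing from KEAP1-KO (7 more positive in WT, 4 more negative) and 5 from DKO (2 and 3). Of the 17 endothelial rows that reached the filter in a cell library, 7 departed from KEAP1-KO (3 more positive, 4 more negative) and 3 from DKO, all more negative in WT. The medians of those 17 rows were 1.74 in WT, 2.14 in DKO and 1.55 in KEAP1-KO. Neither Kdr nor Tie1 passed either test, while Cdh5 rose by 6.44 in WT, 3.13 in DKO (adjusted p = 2.98e-08, limma) and 4.49 in KEAP1-KO (adjusted p = 3.28e-05, limma).

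Other groups set WT apart from both genotypes or from DKO. Immediate early genes had medians of 1.37 in WT, 0.26 in DKO and 0.20 in KEAP1-KO, with 17 of 40 rows more positive and 1 more negative in WT than in DKO, and 20 more positive and 1 more negative than in KEAP1-KO. Jun rose by 0.83 in WT, with differences of -0.17 in DKO (adjusted p = 6.71e-05, limma) and 0.00 in KEAP1-KO (adjusted p = 0.000349, limma). Hmox1 rose by 2.62 in WT and had differences of 0.74 in DKO (adjusted p = 0.000107, limma) and 0.03 in KEAP1-KO (adjusted p = 5.77e-07, limma). For Cd274 the differences were 2.70, 1.01 (adjusted p = 0.00123, limma) and 0.17 (adjusted p = 4.51e-06, limma). Amino acid response genes fell less in WT than in DKO, with medians of -1.36 and -2.07 and 21 of 39 rows departing, all of them more positive in WT, and more than in KEAP1-KO, whose median was -0.91, with 14 of 39 rows more negative in WT and 1 more positive. For ribosome biogenesis and MYC targets the medians were -0.90, -1.58 in DKO and -1.37 in KEAP1-KO, with 20 of 40 rows more positive in WT than in DKO and 1 more negative. Of the 32 NRF2 target rows, 12 were more negative in WT than in KEAP1-KO and 6 more than in DKO, and 3 were more positive in WT in each comparison. Gstm1 fell by 3.25 in WT, by 0.70 in DKO (adjusted p = 3.92e-10, limma) and by 0.45 in KEAP1-KO (adjusted p = 9.03e-11, limma), and Nqo1 by 2.16, by 0.84 (adjusted p = 0.000237, limma) and by 0.05 (adjusted p = 2.03e-07, limma). Cell cycle genes had nearly equal medians, -1.19, -1.27 and -1.32, and 1 of 82 rows departed from DKO and 3 from KEAP1-KO.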

How the data were processed

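RNA from 28 libraries had been depleted of ribosomal RNA, sequenced on directional libraries and quantified by the authors with Salmon. The authors deposited 1 table of log2 values. The study's methods speak of TPM, but the values were found to be log2(normalized count + 4), since the lowest is 2 and the low values are whole reads (tolerance 0.05). No column was left without a sample. Row names were matched to GENCODE vM21, while the study's methods name another release, and no gene coordinates are given. Promoters are from RefSeq on GRCm38.p6. The comparison, its members and the lists and genes were chosen with earlier results of these data known, and the libraries were assigned by their labels.

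The 28903 rows that had 5 or more normalized counts in 4 or more WT libraries were fitted with limma 3.58.1 in R 4.3.3 (trended empirical Bayes), with Benjamini-Hochberg adjustment over all of them and a threshold of 0.05. Departures between genotypes were interaction terms in 1 fit of 28 libraries, with no term for the mouse. Other steps used Python 3.11.15 with numpy 2.4.6, pandas 2.3.3, scipy 1.17.1 and matplotlib 3.10.9. A fold for a group with 0 reads is a lower bound against 3 reads over its 4 libraries, and counting intervals (95%) cover counting error only. Genes eligible for naming (201) were Keap1, Nfe2l2, genes marked as leading a list, the highest and lowest tested difference in each list, and the 15 highest and 15 lowest called rows with a symbol and no overlap of groups, predicted gene models left out. Of these, 170 are described, and some items are not reported here. Alternatives were 3 other scalings (by quantiles, by the median, and by the total of all but the 20 highest rows), no filter, a mean filter, a pseudocount of 1, reads drawn down to equal depth, symbols summed, no trend, quality weights, all libraries in the fit, a replicate block and leaving out each library. On simulated data (24912 rows, 200 changed) the fit recovered 45% of the changes of 1 and 78% of the changes of 2 log2 units, and 7.52% of calls were false. Far more rows were called in the real data, 12564 of 28903, so these rates need not hold there.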

Additional observations from a re-analysis of the deposited data

Results flagged for a closer look

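Among the genes named above, a library that stood far from the other 3 of its group was looked for in 268 groups of 4 in which some library reached 5 normalized counts, and 18 were found, where chance marks about 1 group in 20. Among WT cells these were Xcr1 in replicate 1 (3.28, others 3.23, though each of the 4 held 5 reads and differed only in scaling), Ms4a1 in replicate 4 (3.23, others 3.66 to 3.71), Pdgfra in replicate 1 (2.0, others 5.48 to 5.91), B2m in replicate 1 (12.58, others 12.44 to 12.45), Fn1 in replicate 3 (8.35, others 7.38 to 7.45), Mki67 in replicate 2 (2.0, others 3.28 to 3.52), Hspa1b in replicate 4 (3.23, others 2.85 to 2.89), Inpp5d in replicate 1 (5.46, others 5.75 to 5.78), Odc1 in replicate 2 (3.89, others 4.74 to 4.85), Gstm2 in replicate 1 (7.33, others 7.46 to 7.48). Among WT tumors they were mt-Nd1 in replicate 4 (13.68, others 13.91 to 13.93), Lyz2 in replicate 4 (11.14, others 11.72 to 11.82), Cdk4 in replicate 3 (7.99, others 7.58 to 7.64), Sgk1 in replicate 1 (4.46, others 2.0), Selenop in replicate 4 (9.68, others 10.15 to 10.18), Pgam1-ps2 in replicate 1 (7.20, others 2.0), Adck5 in replicate 1 (6.06, others 2.0), Mrps23 in replicate 2 (4.64, others 2.0). Replicate 1 of the cells accounts for 5 of them, and replicates 1 and 4 of the tumors for 3 each.

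The difference between tumors and cells departed between WT and DKO in 30 of the named genes by limma with Benjamini-Hochberg adjustment, with 18 more positive and 12 more negative in WT, where the shares over all rows with a symbol were 8.02%, 4.91% and 3.11%. Many named genes were picked for the size of their WT difference, which bears on these counts and on those for KEAP1-KO. The WT difference minus the DKO difference was negative for Id3 -3.21, Eya2 -3.04, Khk -2.96, Gstm1 -2.55, Rn18s -2.54, Mmp9 -2.26, Nqo1 -1.32, Btc -1.06, Pdgfrb -1.0, Gstm2 -0.99, Keap1 -0.59, mt-Co1 -0.57. It was positive for Asns 0.49, Hspd1 0.58, Nop56 0.74, Ncl 0.82, Jun 1.0, Snai2 1.15, Cxcr2 1.28, Nid2 1.30, Ddit3 1.32, Slc7a11 1.62, Flt3 1.65, Cd274 1.69, Hmox1 1.87, Wdfy4 1.91, S100a9 2.23, Ptgs2 2.44, Lcn2 2.71, Cdh5 3.31.

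The difference between tumors and cells departed between WT and KEAP1-KO in 71 of the named genes by limma with Benjamini-Hochberg adjustment, with 62 more positive and 9 more negative in WT, where the shares over all rows with a symbol were 9.48%, 7.21% and 2.28%. The WT difference minus the KEAP1-KO difference was negative for Rn18s -4.44, Gstm1 -2.80, Eya2 -2.52, Gstm2 -2.41, Nqo1 -2.11, Btc -1.25, Snai2 -0.72, Asns -0.62, Rpl3 -0.40. It was positive for B2m 0.73, Pdgfrb 0.80, Jun 0.83, Cxcl1 1.27, C1qa 1.31, Ptgs2 1.40, Pf4 1.41, Ebf1 1.44, Pecam1 1.47, Ccl6 1.48, Tnf 1.51, Selenop 1.56, C1qb 1.60, Ccr7 1.63, Cd4 1.65, Ccl5 1.71, Hspa1b 1.72, Klrk1 1.74, Sirpa 1.74, Fos 1.75, Col3a1 1.79, Cpa3 1.83, Lyz2 1.84, Adgre1 1.87, Csf1r 1.91, Pmp22 1.92, C3 1.93, Cdh5 1.95, Ctsc 2.01, Ctss 2.08, Prf1 2.14, Coro1a 2.14, S100a9 2.16, Laptm5 2.25, Csf3r 2.38, Ccl2 2.39, Ciita 2.40, Mpeg1 2.40, Cxcr2 2.42, Cd274 2.52, Fkbp5 2.54, Ptprc 2.58, Hmox1 2.59, Ifi207 2.59, Lcp1 2.60, H2-K1 2.65, Gzmb 2.78, Il1b 2.81, Itgam 2.85, Lcn2 2.99, Cxcl9 3.04, Isg15 3.05, H2-Ab1 3.08, H2-Aa 3.11, Wdfy4 3.29, Irf7 3.45, Cd74 3.55, Slfn4 3.59, Cd244a 3.69, Ifit3 3.81, Cxcl10 3.90, Gbp2 4.15.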

How the results depend on the processing

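Over the alternatives, 3125 values kept their direction and their side of the threshold, 46 lost and 23 gained a call and 8 changed sign. Rows with a symbol that were called numbered 7623, and 7084 to 7248 when 1 library was left out (3472 to 3642 higher, 3530 to 3681 lower). With a log2 difference of at least 1 required as well there were 4000 (2359 higher, 1641 lower). Higher rows numbered 2521 with a mean of at least 25 normalized counts and 2533 with median centring. Signs turned for B2m (-0.10) and, among genes that were not called, for Cd8a (-0.10), Myc (-0.067) and Inpp5d (-0.20) with median centring, and for mt-Co1 (0.26), Cd8a (-0.15), Myc (-0.031) and Inpp5d (-0.13) with quantile normalization. For these turns the cause was not tested. With the replicate number as a block, 7128 rows were called (3521 higher, 3607 lower), 151 of the named genes. Same-numbered WT cells and WT tumors had correlations of -0.008 to 0.007, so the numbers do not pair these samples. Whether a number marks the same mouse in tumors of both flanks was not tested. Of the 170 named genes 152 were called, 129 to 156 elsewhere, and 144 kept call and direction in each fit that tested them. With the mean of 25, 24 of the 152 were not tested. NK cell rows were called in 2 against 2 and B cell rows in 1 against 1 with the mean of 25, muscle in 4 against 4 with quantile normalization. Over all rows, with or without a symbol, departures from DKO numbered 1832 (1394 to 1999 elsewhere, 1782 with the block) and from KEAP1-KO 2003 (1490 to 2370, 1992 with the block), and the DKO split of 1049 more positive and 783 more negative became 765 and 827 with quantile normalization, and the KEAP1-KO split of 1444 and 559 became 1071 and 1299 with median centring. Cd3e, Lck, Ncr1, Ctla4, Fkbp5 and Per1, which the filter left out, were called without it.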
